A study of Mus musculus with 8 samples.

Results

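The 10 genes described here serve the display of peptides on MHC class II molecules and the costimulation of T cells: Cd74, H2-Aa, H2-Ab1, H2-Eb1, H2-DMa, H2-DMb1, Ciita, Ifi30, Cd86 and Cd40. They were taken by name from a list of genes with these known roles, drawn up with earlier results of these data known, and all 10 were found among the 54532 genes of the first table and the 28229 genes of the second. RNA was measured by bulk sequencing in 8 libraries of brain tissue from male C57BL/6 mice, young adults by the study's behavioural methods. All 8 libraries were taken on Day 21, and every group had been exposed to restraint stress (RS), in which mice are confined in a tight space. The PTS + RS group (2 libraries) had in addition a photothrombotic stroke, in which a light-activated dye clots the vessels of the illuminated cortex, and the damaged cortex was taken. The RS group (2 libraries) had restraint stress without stroke, also with the label cortex. In a second experiment, mice with stroke and restraint stress received either RGFP109 at 60 mg/kg under the skin once a day (2 libraries), which the labels call an HDAC3 inhibitor, or NaCl, here named the vehicle group (2 libraries). In this experiment the labels gave cortex for replicate 1 and amygdala for replicate 2 of each group. The labels do not say whether the libraries of a group came from separate animals, so the p-values measure the spread between these libraries, which may be technical.

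MHC class II molecules are heterodimers of an alpha and a beta chain that present peptides from engulfed material to CD4+ T cells. They assemble on the invariant chain Cd74, lose it to lysosomal proteases, and receive peptide with the help of the H2-DM dimer, while Ciita drives the transcription of the whole set, classically under interferon-gamma. In brain tissue these genes are mainly active in macrophages at the borders, in infiltrating antigen-presenting cells and in a part of activated microglia, and a T cell also needs a costimulatory signal such as that from CD86.

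Of the 10 genes, 5 lie close together on mouse chromosome 17 in the deposited annotation of build GRCm38. These are H2-DMa (chr17:34135182-34139101), H2-DMb1 (chr17:34153072-34160230), H2-Ab1 (chr17:34263209-34269418), H2-Aa (chr17:34282744-34287827) and H2-Eb1 (chr17:34305877-34316199), with H2-Aa on the minus strand and the others on the plus strand. Ciita (chr16:10480059-10528418, plus strand) and Cd86 (chr16:36603869-36666081, minus strand) lie on chromosome 16. Cd40 (chr2:165055627-165072948, plus strand), Cd74 and Ifi30 lie on other chromosomes. The tables annotate 9 of the 10 as protein coding and Ifi30 as a processed transcript.

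Class II genes carry a conserved promoter module in which an X box, bound by the RFX complex, precedes a Y box, bound by NF-Y, and Ciita acts through the proteins on it. Promoter sequence from RefSeq (build GRCm38.p6) was at hand for 5 of the 10 genes: H2-Aa, H2-Eb1, H2-DMa, H2-DMb1 and Ifi30. The 250 bases before the start were searched on both strands for a Y box core ATTGG and an X box core TAGNNACNG. Over 32851 mouse promoters, 33.8% held the Y core, 8.42% held the X core, and 0.195% held an X core followed on the same strand by a Y core after 10 to 35 bases. The promoters of H2-Eb1 and H2-DMb1 belonged to that small class. The stretches of H2-Eb1 and H2-Aa from 110 to 11 bases before the start are shown because they are the promoters of a beta and an alpha chain and show the module with and without the X core letters; capitals mark matches to the cores, CCAAT being the Y core on the other strand. They cover chr17:34305757-34305856 on the plus strand and chr17:34287834-34287933 on the minus strand.
H2-Eb1: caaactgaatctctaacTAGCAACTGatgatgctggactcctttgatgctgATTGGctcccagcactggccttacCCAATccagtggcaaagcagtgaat
H2-Aa: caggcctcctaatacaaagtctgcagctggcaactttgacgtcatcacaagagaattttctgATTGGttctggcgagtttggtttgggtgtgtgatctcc
In H2-Eb1 the X core TAGCAACTG began 93 bases before the start and was followed by ATTGG after 25 bases. In H2-DMb1 the X core TAGTAACTG began 96 bases before the start and was followed by ATTGG after 26 bases. H2-Aa held ATTGG, 48 bases before the start, and no match to the X core letters. A promoter of H2-DMa, annotated upstream of the start in the deposited tables, held ATTGG 198 bases before its start, and the Ifi30 promoter held neither core. A gamma-activated site TTCNNNGAA (7.02% of all promoters) and an NF-kB motif (0.356%) had no match in these promoters. These matches describe letters in a window and do not show binding.

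Total counts ran from 15902013 to 21712033 per library and the mitochondrial share from 3.59% to 4.55%. Counts of the 10 genes were low, from 4 for Cd40 to 659 for Cd74 in a library, so the counting error of the lowest is large. Libraries of a group were closer in the first experiment (r of log CPM, a gene's counts scaled to library size, 0.982 for PTS + RS and 0.990 for RS) than in the second (0.966 for RGFP109 and 0.943 for vehicle). Vehicle replicate 1, labelled cortex, stood apart: 10 olfactory bulb markers, a list made after the data were seen, summed to 1318 CPM there and to 17.3 to 29.5 CPM in the other 7 libraries. In the second experiment RGFP109 replicate 1, also labelled cortex, stood apart in choroid plexus markers. These summed to 2218 CPM there and to 181 to 221 CPM in the other libraries of that experiment. The amygdala-labelled libraries were higher than the cortex-labelled ones of the same experiment in amygdala markers (559 and 581 against 427 and 269 CPM), in cortex markers (985 and 906 against 765 and 594 CPM) and in striatum markers (1143 and 1267 against 197 and 253 CPM), so the marker sums did not separate the labels as cortex from amygdala.

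Between the PTS + RS and RS groups, 2 of the 10 genes rose: Ifi30, a lysosomal thiol reductase that opens disulphide bonds of antigens, by 3.83-fold, and Cd86, the costimulatory ligand of CD28 and CTLA4, by 4.94-fold. A gene was past the threshold when its adjusted p was below 0.05 and its fold change at least 2, with edgeR's quasi-likelihood test and Benjamini-Hochberg adjustment over all 17581 genes tested. Of all genes tested, 2.12% were past it as higher and 0.091% as lower, and no member was past it as lower. Of the 10 members, 9 had a positive log2 fold change and 1 a negative. The median log2 fold change of the 10 was 0.64, beside -0.0015 over all genes tested. In 6 of the 10 (H2-Aa, H2-Ab1, H2-Eb1, H2-DMb1, Ifi30 and Cd86) every PTS + RS library lay above every RS library, a pattern that 25.7% of all genes tested showed.

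**Figure D1:**
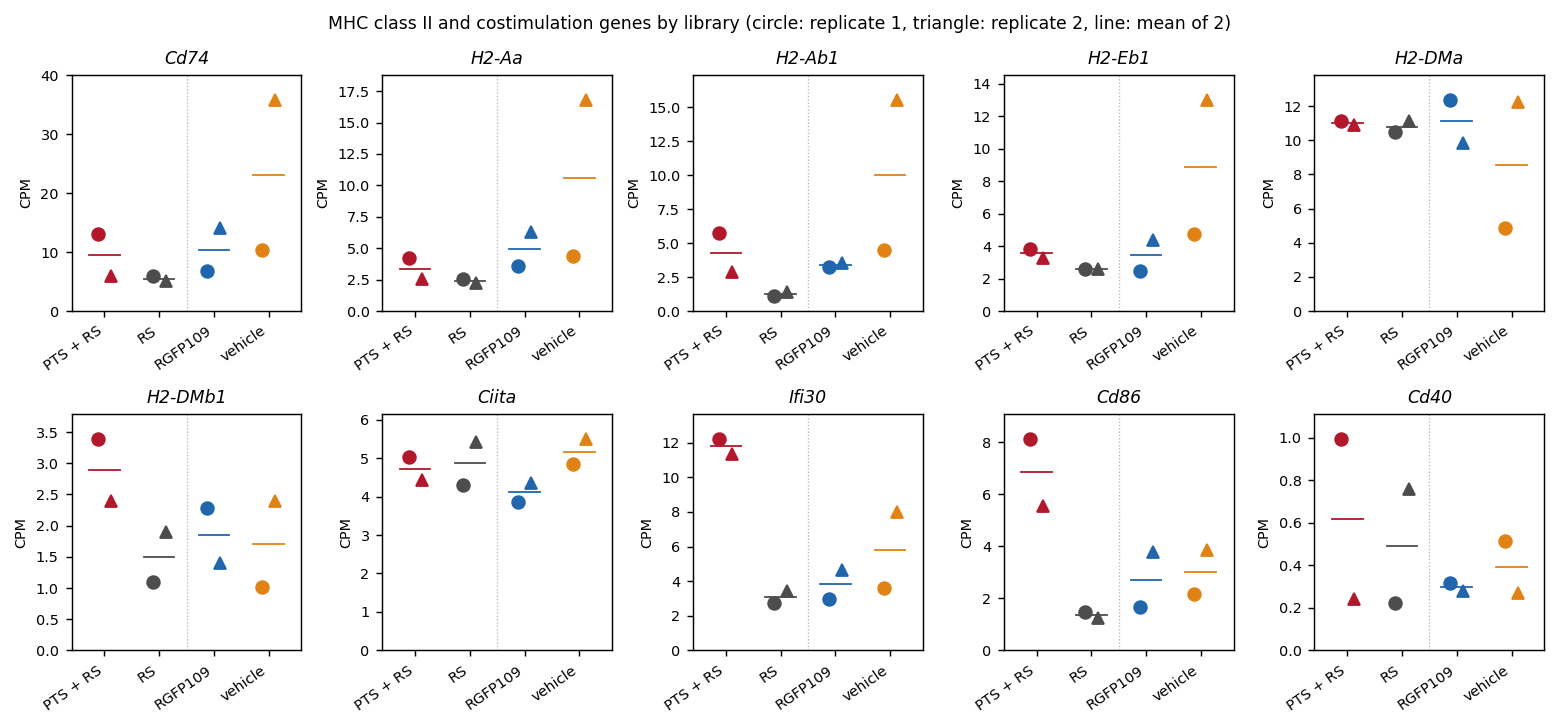
Level of each of the 10 genes in CPM (vertical axes from 0, a scale for each gene) in the 8 libraries, by group; circles are replicate 1, triangles replicate 2 and lines the mean of the 2, and the dotted line divides the 2 separately normalised tables. Ifi30 and Cd86 stand far apart between PTS + RS and RS, whereas vehicle replicate 2 lies above all other libraries for Cd74, H2-Aa, H2-Ab1 and H2-Eb1.

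Ifi30 and the 6 listed antigen proteases rose in PTS + RS. Ifi30 (chr8:70762774-70766663, minus strand) stood at 12.2 and 11.4 CPM in the PTS + RS libraries and at 2.76 and 3.41 CPM in the RS libraries. Both stroke libraries lay well above both RS libraries, with means of 11.8 ± 0.587 and 3.08 ± 0.458 CPM (SD, n = 2 each). The log2 fold change was 1.94 (SE 0.20, edgeR adjusted p = 0.00354), and Ifi30 remained past the threshold when any library was left out (adjusted p at most 0.0336). The gene 6330537M06Rik on the opposite strand overlaps it over 85 bases and had 10 to 17 counts. Of the lysosomal proteases that cut the invariant chain and antigens, all 6 on the list rose. Their median log2 fold change was 1.46, beside 1.79 for 15 microglia markers. Ctss (cathepsin S), which removes the last part of the invariant chain, rose by 2.42 on the log2 scale (adjusted p = 0.000377), Ctsz by 1.99, Ctsh by 1.60, Lgmn by 1.32 and Ctsl by 1.26 (edgeR adjusted p from 0.000376 to 0.00340). Ctss stood at 235 and 189 CPM in PTS + RS against 43.0 and 36.2 CPM in RS.

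The class II chains were less uniform. H2-Ab1, the beta chain of I-A, stood at 5.72 and 2.87 CPM in PTS + RS and at 1.10 and 1.39 CPM in RS. The groups did not overlap, but the stroke libraries lay far from each other. Its log2 fold change was 1.79 (SE 0.41), or 3.45-fold, and missed the threshold (edgeR adjusted p = 0.0687). It passed when PTS + RS replicate 2 was left out (2.20, adjusted p = 0.00101) and with DESeq2 (1.79, adjusted p = 0.0222). It did not pass when any other library was left out (1.21 to 1.95, adjusted p from 0.0919 to 0.339), with limma-voom (adjusted p = 0.120) or with limma-trend (adjusted p = 0.135).

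Its partner H2-Aa, the I-A alpha chain, stood at 4.20 and 2.57 CPM in PTS + RS and at 2.54 and 2.27 CPM in RS. PTS + RS replicate 2 lay next to the RS libraries, and the log2 fold change was 0.49 (SE 0.32, edgeR adjusted p = 0.486). H2-Eb1, the I-E beta chain, stood at 3.85 and 3.29 CPM against 2.59 and 2.59 CPM. These groups did not overlap, and the log2 fold change was 0.46 (SE 0.26, adjusted p = 0.409). H2-Ea-ps, the I-E alpha gene, is defective in C57BL/6 mice, and it had 0 counts in all 4 libraries of this table.

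Cd74, the invariant chain (chr18:60803848-60812646, plus strand), stood at 13.1 and 5.92 CPM in PTS + RS and at 5.96 and 5.05 CPM in RS. PTS + RS replicate 1 was high, while replicate 2 lay within the range of the RS libraries. The log2 fold change was 0.79 (SE 0.36, edgeR adjusted p = 0.313). Without PTS + RS replicate 2 it was 1.24 and past the threshold (adjusted p = 0.00124), and without PTS + RS replicate 1 it was 0.10. PTS + RS replicate 1 also had more counts than replicate 2 from choroid plexus markers (2543 against 226 CPM), meningeal fibroblast markers (238 against 98.8 CPM) and border macrophage markers (170 against 121 CPM). The RS libraries, with the lower Cd74, had 2777 and 5584 CPM of choroid plexus markers. The part of these tissues in the spread of Cd74 was not tested.

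Neither chain of the peptide exchange dimer passed the threshold. H2-DMb1, the beta chain, stood at 3.39 and 2.39 CPM in PTS + RS and at 1.10 and 1.89 CPM in RS, a log2 fold change of 0.96 (SE 0.38, edgeR adjusted p = 0.249). H2-DMa, the alpha chain, stood at 11.1 and 10.9 CPM against 10.5 and 11.1 CPM, a log2 fold change of 0.03 (SE 0.15, adjusted p = 0.945). The 4 libraries of H2-DMa thus lay within a narrow range, and those of H2-DMb1 were lower in RS without overlap; the difference between the chains was not tested. Of 5 other class II chains and modulators on the list, 2 had enough counts to be tested and neither passed: H2-Ob, a chain of the H2-DM inhibitor H2-O, with a log2 fold change of 0.97 (adjusted p = 0.300), and H2-DMb2 with 1.14 (adjusted p = 0.357). H2-Ea-ps and H2-Eb2 had 0 counts in every library of this table.

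Ciita, the master coactivator of the class II genes, stood at 5.02 and 4.43 CPM in PTS + RS and at 4.30 and 5.43 CPM in RS. The groups overlapped, and the log2 fold change was -0.04 (SE 0.23, edgeR adjusted p = 0.955). Ciita overlaps the gene Dexi on the opposite strand over 25888 bases. The strand setting of the counting is not given in the sources used here, so reads of the pair may have been exchanged and the level of Ciita is uncertain. Dexi had 529 and 584 counts in PTS + RS and 726 and 667 in RS, against 74 to 86 for Ciita. None of the 8 other genes of the class II transcription machinery on the list, with the RFX and NF-Y subunits among them, passed the threshold (4 positive, 4 negative, median log2 fold change -0.0052). Nfyb, an NF-Y subunit, had an adjusted p of 0.0477 with a log2 fold change of -0.44, short of the fold threshold.

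**Figure D2:**
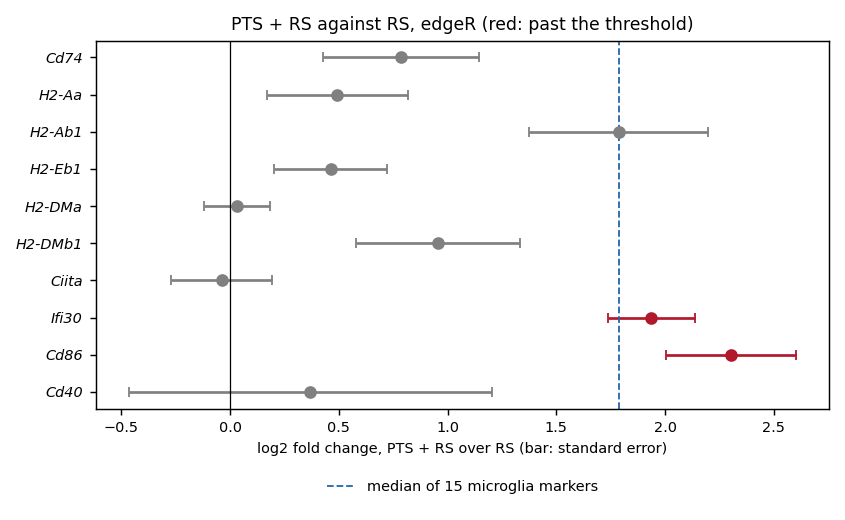
Log2 fold change of each member between PTS + RS and RS from edgeR, with bars of 1 standard error; red points were past the threshold, and the dashed line marks the median of 15 microglia markers at 1.79. Ifi30 (1.94) and Cd86 (2.30) lie to the right of the dashed line, H2-Ab1 at 1.79 lies on it, and the other 7 lie to its left.

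Of the costimulatory genes, Cd86 stood at 8.11 and 5.57 CPM in PTS + RS and at 1.49 and 1.26 CPM in RS. Both stroke libraries were several times higher than both RS libraries, with means of 6.84 ± 1.80 and 1.38 ± 0.161 CPM (SD, n = 2 each). The log2 fold change was 2.30 (SE 0.30, edgeR adjusted p = 0.00880). Without RS replicate 1 it was 2.43 with an adjusted p of 0.0501, just short of the threshold. Cd40, the receptor through which helper T cells license antigen-presenting cells, had 17 and 4 counts in PTS + RS and 4 and 12 in RS. The groups overlapped at this depth and the log2 fold change was 0.37 (SE 0.83, adjusted p = 0.866). Leaving out PTS + RS replicate 1 turned it to -0.97.

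Among 11 other costimulatory and coinhibitory ligands and receptors on the list, 8 were tested and 4 rose. Havcr2, an inhibitory receptor, rose by 2.20, Cd274, an inhibitory ligand, by 1.56, Lgals9, a galectin, by 1.52 and Vsir, an inhibitory checkpoint molecule, by 1.29 on the log2 scale (edgeR adjusted p from 0.000927 to 0.0225). The other 4 tested did not pass, and of genes that can act in restraint Cd276 had a log2 fold change of -0.24 and Tnfrsf14 of 0.27, and Pdcd1lg2 had 0 or 1 counts. Cd80, the close relative of Cd86 that binds the same receptors, stood at 1.34 and 1.14 CPM against 1.88 and 0.883 CPM, with a log2 fold change of -0.17 (adjusted p = 0.893). The difference between the fold changes of Cd86 and Cd80 was not tested. Cd83, which keeps class II and CD86 at the cell surface, rose by 1.08 (adjusted p = 0.0429).

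The partners on T cells were mostly too low to test. Lag3, a receptor for class II, was the only 1 of 6 with enough counts, at 39.9 and 26.3 CPM in PTS + RS against 6.95 and 6.63 CPM in RS, and it rose by 2.28 on the log2 scale (edgeR adjusted p = 0.00271). Cd4 had 7 and 6 counts in PTS + RS and 3 and 3 in RS, and Cd28 had 16 and 8 against 3 and 1. Cd40lg, the ligand of CD40, had 1 count in PTS + RS replicate 2 and 0 in the others. The 9 markers of T cells summed to 3.50 and 2.33 CPM in PTS + RS and to 2.43 and 1.96 CPM in RS. Lag3 alone thus lay above that sum in each library, and which cells carried it was not tested. None of the 10 genes of CD40 signalling and NF-kB passed the threshold, 9 of them with a positive log2 fold change and a median of 0.21. Nfkb2, of the pathway downstream of CD40, had a log2 fold change of 1.06 (adjusted p = 0.101), and Nfkb1 had 0.53 (adjusted p = 0.0537).

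In the interferon-gamma pathway 6 of 16 genes tested rose and none fell. The largest were Cxcl10 (4.08), Irf8 (2.23), Gbp3 (1.86), Gbp2 (1.82) and Irgm1 (1.41, all log2 fold changes, edgeR adjusted p from 0.00135 to 0.0295), among them a chemokine, a myeloid transcription factor and GTPases of cell-autonomous defence. Ifng itself had 0 and 1 counts in PTS + RS and 0 and 0 in RS.

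Microglia and border macrophage marker sums were higher in PTS + RS than in RS. Of 15 microglia markers 13 were past the threshold as higher, with a median log2 fold change of 1.79, and they summed to 1657 and 1420 CPM in PTS + RS and to 416 and 372 CPM in RS. Border macrophage markers summed to 170 and 121 CPM against 40.1 and 36.5 CPM. All 7 tested had a positive log2 fold change, and 2 of them, Stab1 and Ms4a7, were past the threshold. Stab1 alone gave 132 and 104 against 27.1 and 25.2 CPM of that sum. Mrc1, which did not pass, gave 12.1 and 3.95 against 5.46 and 4.42 CPM, with overlap. Among 5 dendritic cell markers tested, Itgax rose by 4.44, whereas the defining markers Xcr1, Cd209a and Ccr7 had at most 5 counts in any of these libraries. Clec9a had 9 and 15 counts in PTS + RS and 4 and 8 in RS, and Batf3 had 22 and 20 against 11 and 8 (log2 fold change 1.14, adjusted p = 0.230). Flt3, by contrast, had 146 and 185 counts against 242 and 249 (log2 fold change -0.57, edgeR adjusted p = 0.173). Zbtb46 had 153 and 120 against 151 and 116 (log2 fold change 0.04). The list of 10 dendritic cell markers, of which Siglech is also on the microglia list, summed to 51.3 and 47.7 CPM against 35.2 and 36.7 CPM. In that sum Siglech gave 20.7 and 21.4 CPM against 11.8 and 11.7 CPM, and Itgax 10.2 and 5.45 CPM against 0.386 and 0.315 CPM. Monocyte markers (8 on the list) summed to 252 and 185 CPM against 137 and 117 CPM, with 2 tested and none past the threshold. Fn1 gave 217 and 151 against 118 and 96.2 CPM of that sum, and Vcan 32.8 and 32.4 against 18.9 and 20.6 CPM. Ly6c2, with 0 to 8 counts, and Ccr2, Plac8, Chil3, S100a4 and Hp were too low to be tested. Of 8 B cell markers, Ighm and Cd22 rose, with list sums of 25.3 and 23.9 CPM against 10.6 and 9.15 CPM, while Ms4a1 had 0 counts in all 4 libraries. T cell markers (9 on the list) summed to 3.50 and 2.33 CPM against 2.43 and 1.96 CPM, and the CD3 chain Cd3g had 0 counts in all 4. Blood markers summed to 40.9 and 37.3 CPM against 61.2 and 45.5 CPM. In bulk tissue, more cells of a type and more RNA per cell cannot be told apart.

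In a description chosen after the data were seen, each gene's CPM was divided by the microglia marker sum of its library and given per 1000 CPM of that sum. Cd86 stood at 4.90 and 3.92 in PTS + RS and at 3.58 and 3.39 in RS, and it was the only 1 of the 10 with both stroke libraries above both RS libraries, as in 0.904% of all genes tested. Ifi30 stood at 7.36 and 8.01 against 6.63 and 9.16, with overlap, and H2-Ab1 at 3.45 and 2.02 against 2.65 and 3.73, also with overlap. For 6 genes (Cd74, H2-Aa, H2-Eb1, H2-DMa, H2-DMb1 and Ciita) both stroke libraries lay below both RS libraries, as in 97.3% of all genes tested. The microglia sum itself was several times higher in PTS + RS, so a gene that rose less than it falls below, as do Ciita and H2-DMa, whose CPM overlapped between the groups. For Cd74 the ratios were 7.89 and 4.17 against 14.3 and 13.6. Which cells carried these transcripts was not tested.

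**Figure D3:**
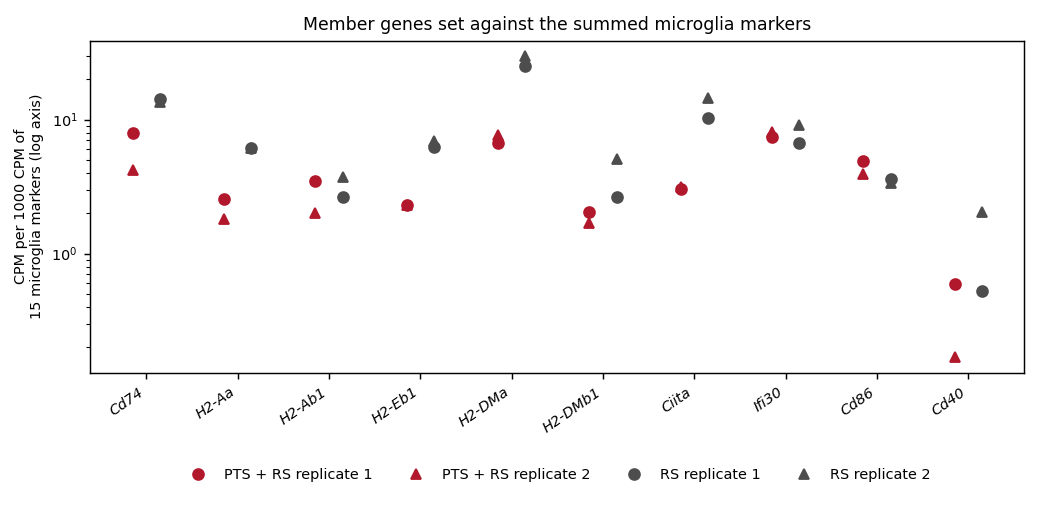
CPM of each member per 1000 CPM of 15 summed microglia markers (log axis) in the 4 libraries of the first experiment; red symbols are PTS + RS, grey symbols RS, circles replicate 1 and triangles replicate 2. Cd86 alone has both red symbols above both grey ones (0.904% of all genes tested), and for 6 genes both red symbols lie below, as for 97.3% of all genes tested, since the marker sum itself was higher in PTS + RS.

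In the second experiment, which asks what RGFP109 did in mice with stroke and restraint stress, no member passed the threshold between the RGFP109 and vehicle groups. Neither did any other gene: 0% of the 17565 genes tested were past it in either direction with edgeR, and DESeq2 and limma-voom also called 0. At an unadjusted p under 0.05, 0.501% of genes were higher and 0.672% lower, and none of the 10 genes was among them. Each arm held 1 cortex-labelled and 1 amygdala-labelled library, and this fit had no term for tissue. Differences between these labels thus entered the spread, and the fitted coefficient of variation was 32.1% here and 11.4% in the first experiment. The lack of calls therefore does not show a lack of effect. Of the 9 members tested, 7 had a negative log2 fold change and 2 a positive, with a median of -0.59 beside -0.016 over all genes tested. In H2-Ab1, H2-Eb1 and Ciita both RGFP109 libraries lay below both vehicle libraries, a pattern seen in 13.8% of all genes tested.

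The invariant chain and the 3 classical chains had their highest level in vehicle replicate 2. Cd74 stood at 6.85 and 14.0 CPM in the RGFP109 libraries (replicates 1 and 2) and at 10.4 and 35.8 CPM in the vehicle libraries. H2-Aa stood at 3.55 and 6.26 CPM against 4.38 and 16.8 CPM. H2-Ab1 stood at 3.23 and 3.55 CPM against 4.49 and 15.6 CPM. In each of them vehicle replicate 2 lay far above the other 3 libraries of this experiment. H2-Eb1 stood at 2.47 and 4.39 CPM against 4.72 and 12.99 CPM, with the same high library. The log2 fold changes were -1.14 (SE 0.68) for Cd74, -1.10 (SE 0.71) for H2-Aa, -1.56 (SE 0.64) for H2-Ab1 and -1.36 (SE 0.61) for H2-Eb1, each with an edgeR adjusted p of 0.9997. Without vehicle replicate 2 those of Cd74 and H2-Aa turned to 0.02 and 0.18, and those of H2-Ab1 and H2-Eb1 were -0.39 and -0.44.

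The other members differed less. H2-DMa stood at 12.4 and 9.86 CPM in the RGFP109 libraries and at 4.89 and 12.2 CPM in the vehicle libraries, with vehicle replicate 1 low. H2-DMb1 stood at 2.28 and 1.40 CPM against 1.02 and 2.39 CPM, again lowest in vehicle replicate 1. Ifi30 stood at 2.98 and 4.67 CPM against 3.58 and 7.99 CPM. In each of these 3 genes the groups overlapped, with log2 fold changes of 0.37 (SE 0.49), 0.10 (SE 0.60) and -0.59 (SE 0.52). Cd86 stood at 1.65 and 3.79 CPM against 2.16 and 3.86 CPM, a log2 fold change of -0.14 (SE 0.58). It was set apart by replicate number and not by treatment. Ciita stood at 3.87 and 4.35 CPM against 4.84 and 5.49 CPM, a log2 fold change of -0.33 (SE 0.31). Cd40, with 5 and 6 counts against 9 and 5, was too low to be tested.

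The labels tie replicate number to tissue, so the ratio of RGFP109 to vehicle was also taken within each number, with 1 library a side and no test. In replicate 1 the log2 ratio was negative for 8 of the 10 genes and positive for 2, beside 51.8% of all genes tested negative. In replicate 2 it was negative for 9 and positive for 1, beside 50.4%. The ratios of Cd74, H2-Aa, H2-Ab1 and H2-Eb1 were negative in both numbers: -0.60, -0.29, -0.46 and -0.90 in replicate 1, and -1.35, -1.41, -2.10 and -1.54 in replicate 2. Those 4 were the members at -1 or below in replicate 2, as were 1.46% of all genes tested. H2-DMa and H2-DMb1 were at 1.32 and 1.08 in replicate 1, where 8.07% of all genes tested were at 1 or above, and at -0.31 and -0.73 in replicate 2. With replicate number as a block, edgeR called no member (adjusted p = 0.9999 for each).

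**Figure D4:**
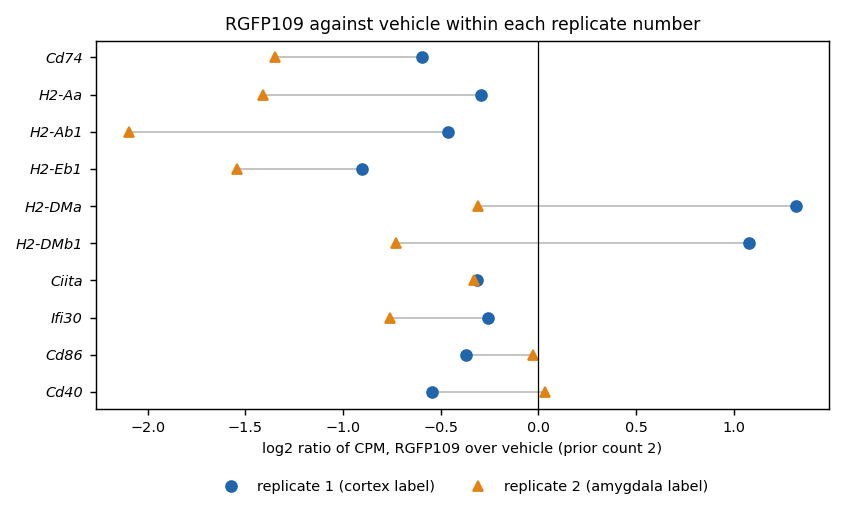
Log2 ratio of CPM between RGFP109 and vehicle within replicate 1 (circles, cortex label) and within replicate 2 (triangles, amygdala label), 1 library a side, with a prior count of 2. Cd74, H2-Aa, H2-Ab1 and H2-Eb1 lie left of 0 in both numbers and farther left in replicate 2, whereas H2-DMa and H2-DMb1 lie on opposite sides.

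The second experiment held no pathway gene past the threshold on any list. All 6 proteases had a negative log2 fold change, with a median of -0.16, and for Ctss it was -0.16 (SE 0.73). Of the 16 interferon-gamma pathway genes tested, 11 were negative and 5 positive, with a median of -0.21. Of the 8 genes of the transcription machinery 7 were negative, with a median of -0.29. Of the 8 other ligands tested 5 were negative, with a median of -0.06. Both other class II chains tested were negative (median -0.25), both surface turnover genes tested were positive (median 0.31), 2 of 3 T cell partners tested were positive (median 0.16) and 6 of 10 genes of CD40 signalling and NF-kB were negative (median -0.07).

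Some marker sums were, like that of the class II chains, highest in vehicle replicate 2. The blood and microglia sums ranked the libraries of this experiment in the same order as the class II sum. The border macrophage sum did not, nor did the microglia sum once Sall1 was left out. Cd74, H2-Aa, H2-Ab1 and H2-Eb1 together summed to 16.1 and 28.2 CPM in the RGFP109 libraries and to 24.0 and 81.2 CPM in the vehicle libraries. In the same order, border macrophage markers summed to 62.6, 78.1, 55.8 and 112 CPM, blood markers (haemoglobin and red cell genes) to 1.65, 127, 13.1 and 439 CPM, and microglia markers to 476, 659, 568 and 710 CPM. Each of these sums was highest in vehicle replicate 2. Stab1 alone gave 39.6, 43.8, 33.3 and 62.3 CPM of the border macrophage sum. Sall1 alone gave 208 CPM of the microglia sum in vehicle replicate 1, the library with the olfactory bulb markers, and 23.7 to 28.2 CPM in the other 3; without it, a change made after the data were seen, the microglia sums were 448, 631, 359.7 and 686 CPM, with vehicle replicate 1 the lowest. Vehicle replicate 2 also had the most meningeal fibroblast marker counts, at 367 CPM against 182 to 213 CPM in the other 3. B cell markers summed to 9.77 and 25.9 CPM in the RGFP109 libraries and to 8.70 and 23.9 CPM in the vehicle libraries, with Ms4a1 at 0 or 1 counts, so they followed the number and not the high library. T cell markers summed to 2.79, 3.60, 2.39 and 3.97 CPM, dendritic cell markers to 42.6, 44.5, 31.7 and 40.4 CPM, and monocyte markers to 140, 172, 167 and 148 CPM. The part of border, blood or meningeal tissue in the class II levels was not tested.

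**Figure D5:**
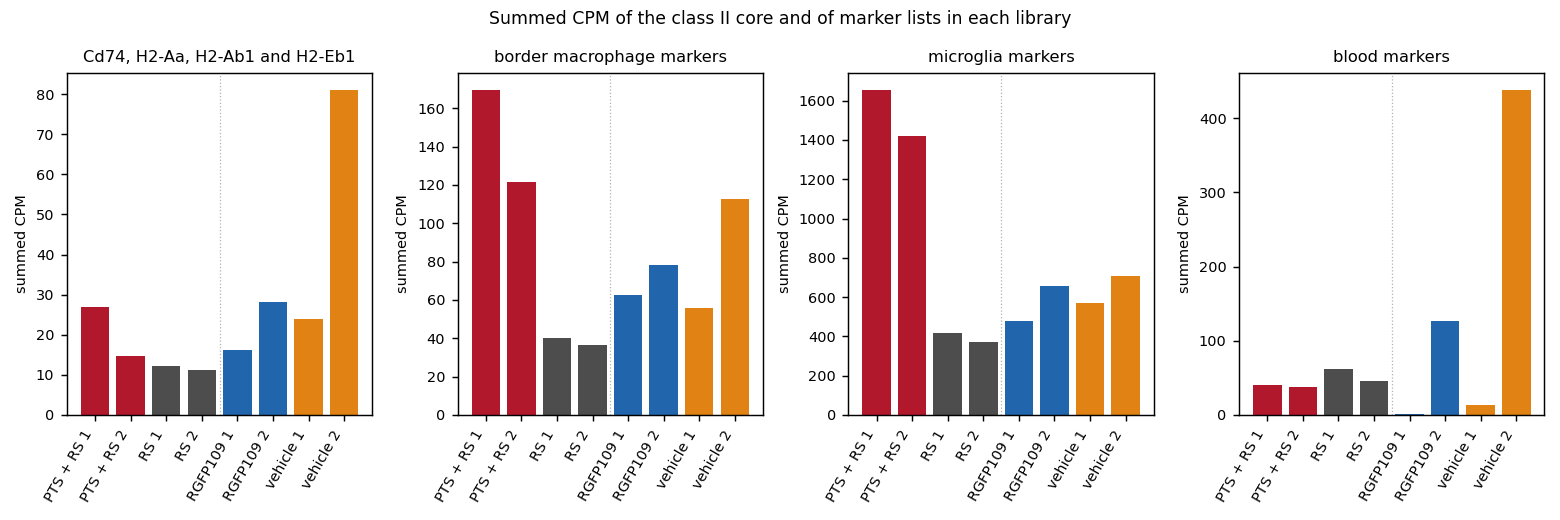
Summed CPM (bars from 0) of Cd74, H2-Aa, H2-Ab1 and H2-Eb1 and of 3 marker lists in each of the 8 libraries, coloured by group; the dotted line divides the 2 separately normalised tables. Vehicle replicate 2 has the highest class II sum (81.2 CPM) and blood sum (439 CPM), while the PTS + RS libraries have the highest microglia sums (1657 and 1420 CPM).

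Compared by tissue label, with treatment as a term in the fit, all 9 members tested were higher in the amygdala-labelled libraries and none was past the threshold. With edgeR 0% of all genes tested were past it, and at an unadjusted p under 0.05, 6.09% of genes were higher and 3.06% lower; DESeq2 called 209 genes, no member among them. Of the 9 members, 5 had an unadjusted p under 0.05 (Cd74, H2-Aa, H2-Eb1, Ifi30 and Cd86). The median log2 difference of the members was 1.00 beside -0.013 over all genes tested. It was largest for Cd74 (1.42, SE 0.29, adjusted p = 0.382), H2-Aa (1.39, SE 0.39, adjusted p = 0.460) and H2-Eb1 (1.16, SE 0.33, adjusted p = 0.472). For Cd86 it was 1.01, for H2-Ab1 1.00, for Ifi30 0.91, for H2-DMa 0.48, for H2-DMb1 0.24 and for Ciita 0.18. In Cd74, H2-Aa, Ifi30 and Cd86 both amygdala-labelled libraries lay above both cortex-labelled ones, as in 21.6% of all genes tested. The 6 proteases were all higher as well (median log2 difference 0.77), as were 9 of 9 border macrophage markers (0.69), 11 of 15 microglia markers (0.53) and 5 of 5 blood markers (5.58), none of them past the threshold. Vehicle replicate 1 stood apart in olfactory markers and RGFP109 replicate 1 in choroid plexus markers. Dissection and label therefore cannot be told apart in this comparison.

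Levels between genes can be set side by side per gene length, in the deposited FPKM. In the RS libraries H2-DMa was the highest of the 10 at 6.55 ± 0.274 FPKM, then Cd74 at 3.88 ± 0.450 and Ifi30 at 3.13 ± 0.469 (SD, n = 2 each). H2-Eb1 followed at 2.18, H2-Aa at 1.28, H2-DMb1 at 1.00, H2-Ab1 at 0.758, Ciita at 0.508, Cd86 at 0.374 and Cd40 at 0.143 FPKM. H2-DMb1 lay within its spread of H2-Aa and H2-Ab1, and the libraries of Cd74 and Ifi30 did not overlap. In PTS + RS, Ifi30 came first at 11.9 ± 0.555 FPKM, ahead of Cd74 at 6.68 ± 3.54 and H2-DMa at 6.67 ± 0.0886, which did not differ beyond their spread. H2-Eb1 at 2.99, H2-Ab1 at 2.60, H2-DMb1 at 1.93, Cd86 at 1.85 and H2-Aa at 1.79 formed a middle group whose neighbours overlapped between libraries, and Ciita at 0.492 and Cd40 at 0.179 FPKM were again the lowest. Cd86 thus lay above Ciita in both PTS + RS libraries and below it in both RS libraries.

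In the second table the first place varied among libraries, which were normalised apart from the first table. H2-DMa was highest in RGFP109 replicate 1 at 7.52 FPKM, and Cd74 was highest in the other 3, at 9.95 in RGFP109 replicate 2, 7.30 in vehicle replicate 1 and 25.3 FPKM in vehicle replicate 2. Across all 8 libraries Cd74 was per length 2.13 to 3.23 times the mean of the 3 chains H2-Aa, H2-Ab1 and H2-Eb1, and Cd40 was the lowest gene in each.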

How the data were processed

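Bulk RNA from 8 libraries in 4 groups of 2 was analysed. By the study's methods and the labels' processing notes, the authors aligned reads to GRCm38 with STAR (2.4.0) and deposited counts per gene from HTSeq (0.6.1), without normalisation. The authors also deposited FPKM, used here for levels between genes and 1 alternative. The labels and the methods name different library kits, and the strand setting is not given in the sources used here. Columns of the authors' comparisons (fold changes, p-values) and 4 columns of normalised values were not used.

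The tables were fitted apart with edgeR (4.0.16, R 4.3.3): filterByExpr (minimum count 10, minimum total 15), TMM, quasi-likelihood test, Benjamini-Hochberg adjustment. CPM used TMM library sizes, and within-number ratios a prior count of 2 (alternative 0.5). Alternatives were size factors of DESeq2's method, DESeq2 (1.42.0), limma-voom and limma-trend on log2(FPKM + 1) (limma 3.58.1), no filter, a replicate block, no treatment term for the tissue comparison, and each library left out. The fit was tested on simulated data. Deviations of same-numbered libraries from their group means correlated at 0.035 in the first table, where numbers do not pair libraries, and at 0.30 in the second, where the labels tie number to tissue. Total counts were 15902013 to 21712033 per library.

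Members and gene lists were chosen with earlier results of these data known. All 10 members are given in every comparison. Of each pathway list, counts, the genes past the threshold (at most the 5 largest) and H2-Ea-ps are given. Of the marker lists only some sums, counts and genes are given, and not every marker past the threshold is named. Other genes named were chosen after their values were seen. March1 and March8 were not matched by name.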

Additional observations from a re-analysis of the deposited data

Results flagged for a closer look

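H2-DMa, H2-DMb1 and Cd40 had RGFP109 to vehicle ratios of opposite sign in the replicate numbers, which the labels tie to cortex (1) and amygdala (2). The difference was not tested, since each ratio rests on 1 library a side. The log2 ratio of H2-DMa was 1.32 in replicate 1 and -0.31 in replicate 2. The log2 ratio of H2-DMb1 was 1.08 in replicate 1 and -0.73 in replicate 2. For both chains of the dimer vehicle replicate 1, the library with the olfactory bulb markers, was the lowest of the 4. The library it was set against, RGFP109 replicate 1, was the one high in choroid plexus markers. The log2 ratio of Cd40 was -0.54 in replicate 1 and 0.032 in replicate 2, on 5 to 9 counts a library.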

How the results depend on the processing

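Between PTS + RS and RS, 389 genes were past the threshold in the main analysis, 759 without the count filter (604 higher, 155 lower) and 200 with limma-trend on log2(FPKM + 1) (184 higher, 16 lower). Leaving out 1 library gave 206 to 768 genes and 1 to 4 members, where the omission of RS replicate 1 gave 206 genes, that of RS replicate 2 gave 235 and that of PTS + RS replicate 2 gave 768. With the replicate block 475 genes were past it and H2-Ab1 passed (1.73, adjusted p = 0.0429); the numbers here share no stated source. H2-Ab1 also passed with no filter (1.78, adjusted p = 5.4e-06). Leaving out a library gave 0.10 to 1.24 for Cd74, and reversed the sign of Cd40 (range -0.97 to 1.45), Ciita (-0.20 to 0.13) and H2-DMa (-0.011 to 0.069). The scaling alternative kept the direction of every member.

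Between RGFP109 and vehicle, leaving out 1 library gave 0 to 8 genes, the 8 (all lower) without vehicle replicate 2, and 0 members. It reversed Cd74 (range -1.78 to 0.019), H2-Aa (-1.77 to 0.18), Ifi30 (-1.06 to 0.11), Cd86 (-0.87 to 0.35), H2-DMa (-0.15 to 1.19) and H2-DMb1 (-0.39 to 0.84). The replicate block changed no call there. By tissue label 0 genes were past the threshold with edgeR, 209 with DESeq2, 240 without the filter and 3 with limma-trend; leaving out a library left no residual degrees of freedom with the treatment term and was not run. Of 168 member values under the other settings, 165 kept direction and side of the threshold and the 3 exceptions are those of H2-Ab1. The causes were not tested. Cd40 had 4 to 17 counts in the first table, so its fold change is imprecise (SE 0.83).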

Other observations

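Cd4, the coreceptor that binds class II on helper T cells, had 250 counts in RGFP109 replicate 2 and 193 in vehicle replicate 2, the amygdala-labelled libraries, and 5 and 6 counts in the cortex-labelled libraries of the same experiment. In CPM these were 11.7 and 10.5 against 0.317 and 0.341. The T cell chains Cd3e, Cd3d and Cd3g had at most 8 counts in any of these 4 libraries. Cd4 was picked out after its values were seen.

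Itgax had 86 and 79 counts in the amygdala-labelled libraries and 7 and 14 in the cortex-labelled ones. In the first experiment it had 175 and 91 counts in PTS + RS and 7 and 5 in RS. It was singled out after its values were seen.

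The 4 genes Cd74, H2-Aa, H2-Ab1 and H2-Eb1 together made up 71.6% of the summed CPM of the 10 members in vehicle replicate 2, 58.5% in vehicle replicate 1, 53.7% and 40.7% in RGFP109 replicates 2 and 1, and 29.6% to 39.7% in the first experiment. The tables were normalised separately, but the share is taken within a library.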
